A study of Mus musculus with 6 samples.

Results

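The genes described here were grouped by symbol into 5 families, many of whose proteins bind RNA or act in pre-mRNA splicing. These are the genes of the SR proteins (Srsf), the heterogeneous nuclear ribonucleoproteins (Hnrnp), the SF3A and SF3B subunits of the U2 particle (Sf3a, Sf3b), the small nuclear ribonucleoprotein polypeptides (Snrp) and the RNA-binding motif proteins (Rbm). The Rbm genes share a name, and not all of them encode splicing factors. The members were taken as all probe sets to which the platform annotation gives 1 gene symbol that begins with Srsf, Sf3a, Sf3b or Rbm and a number, or with Hnrnp or Snrp. This gave 234 of the 45037 probe sets tested, for 83 of 18193 genes: 10 Srsf, 19 Hnrnp, 9 Sf3a or Sf3b, 9 Snrp and 36 Rbm genes, of which 2 are antisense genes (Rbm3os and Rbm46os). Of the 83 genes, 60 had several probe sets, up to 12 for Rbm39, and 23 had 1. In each gene the probe set with the highest mean over the 6 arrays is called the brightest, which left 151 other probe sets. The KO samples were compared with the WT samples for each of them.

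Introns are removed by the spliceosome, which assembles on each intron from small nuclear RNAs and their proteins. SR proteins mostly bind exons and favour their inclusion, whereas many hnRNP proteins bind nascent RNA and oppose or redirect the choice of splice site, and the SF3A and SF3B subunits hold the U2 particle on the branch site. Many splicing factor genes also make alternative transcripts of their own, among them forms that end early or keep an intron, so that different probe sets of 1 gene can read different transcripts.

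The samples were mammary epithelial organoids, which are fragments of gland, of 8 week old female mice of mixed background (129/J; C57BL/6). Markers of fibroblasts, endothelium and adipocytes were also measured in them, as given below. All mice were homozygous for a floxed Wwox allele. The 3 WT mice lacked the BK5-cre transgene and the 3 KO mice carried it, with Cre driven by the bovine keratin 5 promoter of basal epithelial cells. Each mouse gave 1 Affymetrix Mouse Genome expression array, named WT1, WT2, WT3, KO5, KO6 and KO7 below, and values of 3 arrays are always given in that order. No group carried Cre without the floxed allele, so that loss of Wwox and presence of Cre cannot be told apart.

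The brightest probe set of Wwox was at 7.77, 7.63 and 7.72 in WT and at 6.23, 5.87 and 5.96 in KO, on the log2 scale. The arrays of a group correlated at 0.980 to 0.992, and the array medians lay between 5.42 and 5.47. Control probe sets for RNA quality were unlike between the groups in part. Signal at the 3' end of Gapdh exceeded that at its 5' end by 0.95, 2.41 and 1.79 in WT and 0.40, 0.56 and 0.46 in KO, and the same measure of Actb was 0.98, 1.85 and 1.82 against 0.71, 0.63 and 0.63 (two-sided exact permutation p = 0.1 for each, the smallest that 3 against 3 arrays allow). The measure was also higher in WT for Tfrc (mean 2.03 against 1.74, exact p = 0.1) but not for Pcx (2.22 against 2.83, exact p = 0.3), and the mean of all 4 controls overlapped, at 1.45 to 2.14 in WT and 1.28 to 1.53 in KO. Of the WT arrays, WT1 lay closest to the KO arrays for Gapdh and Actb, and farthest from them for Tfrc (2.09) and Pcx (1.77). Summed marker levels of fibroblasts (13.43 to 13.51 in WT, 13.82 to 14.21 in KO, log2), endothelium (10.42 to 11.23 against 11.26 to 11.75) and adipocytes (14.02 to 14.16 against 14.25 to 14.31) were higher in every KO array, with 1 of 8 measured markers passing the test and 1 fibroblast and 1 adipocyte marker lower in KO. Those of leukocytes overlapped (8.91 to 11.50 against 8.59 to 9.94), with all 3 measured markers lower in KO and 0 called. Among them Ptprc was at 11.29, 10.24 and 7.81 in WT and 7.16, 9.18 and 7.32 in KO. The markers of the labelled tissue were present in all arrays, at summed levels of 15.90 to 16.14 for luminal and 13.35 to 13.74 for basal epithelium, and their groups overlapped.

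Promoter sequences of RefSeq (build GRCm38.p6, 250 bases before to 50 bases from each transcription start) were found for 71 of the 83 genes, giving 91 promoters. A motif of ETS-type factors, CCGGAAG on either strand, was in 26 of the 91 (28.6%), against 8.86% of the 32851 promoters of the whole table. By gene it was in 6 of 7 Sf3a and Sf3b genes, 4 of 8 Snrp genes, 3 of 10 Srsf genes, 6 of 29 Rbm genes and 2 of 17 Hnrnp genes, against 9.93% of all 27025 genes. The palindrome CTCGCGAG was in 7.69% of members' promoters and 0.919% of all, the GC box GGGCGG in 58.2% and 35.7%, CCAAT in 42.9% and 37.4%, and TATAAA in 9.89% and 13.6%. Each motif was counted on its own, and matches that meet can share end letters. In all, 21 of the 71 genes (29.6%) held the ETS-type motif. Shown here are the promoters of 4 genes picked by their changes. On brightest probe sets Sf3b6 and Snrpb2, proteins of the U2 particle, had the lowest KO values relative to WT in their families. Sf3b2 and Srsf11 each had a called rise on a dimmer probe set. Sf3b1, Rbm5 and Rbm47 had such a rise too and are not shown. Whether the motif goes with the change in KO was not tested. Capitals mark CCGGAAG or its reverse complement CTTCCGG.
Sf3b6, chr12:4817358-4817657, plus strand: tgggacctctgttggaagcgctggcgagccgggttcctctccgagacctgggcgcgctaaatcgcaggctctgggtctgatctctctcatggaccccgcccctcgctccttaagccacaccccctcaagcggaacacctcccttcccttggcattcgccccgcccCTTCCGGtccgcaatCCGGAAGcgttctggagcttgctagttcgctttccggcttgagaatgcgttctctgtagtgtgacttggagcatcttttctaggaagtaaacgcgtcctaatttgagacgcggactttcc
Snrpb2, chr2:143062819-143063118, plus strand: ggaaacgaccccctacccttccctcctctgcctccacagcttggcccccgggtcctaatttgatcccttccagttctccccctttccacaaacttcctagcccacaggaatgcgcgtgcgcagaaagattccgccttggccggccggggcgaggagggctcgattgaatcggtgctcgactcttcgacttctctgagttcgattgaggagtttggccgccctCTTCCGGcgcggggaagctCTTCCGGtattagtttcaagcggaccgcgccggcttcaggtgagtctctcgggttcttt
Sf3b2, chr19:5295408-5295707, minus strand: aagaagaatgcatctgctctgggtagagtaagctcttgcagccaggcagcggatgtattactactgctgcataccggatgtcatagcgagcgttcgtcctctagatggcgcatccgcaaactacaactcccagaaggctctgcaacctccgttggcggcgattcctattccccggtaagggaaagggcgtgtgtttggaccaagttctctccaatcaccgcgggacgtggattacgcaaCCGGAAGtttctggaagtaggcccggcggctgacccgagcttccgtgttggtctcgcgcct
Srsf11, chr3:158036557-158036856, minus strand: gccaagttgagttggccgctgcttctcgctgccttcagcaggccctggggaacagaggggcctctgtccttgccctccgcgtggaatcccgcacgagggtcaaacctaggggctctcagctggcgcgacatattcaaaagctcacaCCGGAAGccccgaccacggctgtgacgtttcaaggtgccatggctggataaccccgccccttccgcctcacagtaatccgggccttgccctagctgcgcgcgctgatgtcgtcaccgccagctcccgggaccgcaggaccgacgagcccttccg
Sf3b6 and Snrpb2 each held 2 copies, and Sf3b2 and Srsf11 each held 1. A match describes the letters of the window and does not show that a factor binds there.

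A probe set was called where limma's unadjusted p was under 0.01 and the change at least 2-fold. The brightest probe set of 77 of 83 genes lay within 1.5-fold (92.8%, against 91.2% of all brightest probe sets), and for 77 the 95% interval lay inside 2-fold in both directions (92.8% against 87.6%). Of the 151 other probe sets, 119 lay within 1.5-fold (78.8%, against 87.5% of all others), and for 116 the interval lay inside 2-fold (76.8% against 84.5%). Of the 234 members, 6 (2.56%) were called higher in KO, where 1.69% of all probe sets were, and 1 (0.427%) was called lower, where 0.3% were. The shares of members called were thus near those of the whole array. None of the 234 had a Benjamini-Hochberg adjusted limma p under 0.05, which 0.222% of all probe sets had, while an unadjusted p under 0.05 was found for 28 with a higher mean in KO (12.0%, against 9.54% of all) and 44 with a lower one (18.8%, against 9.74%). In 28 members every KO array lay above every WT array (12.0%, against 10.7% of all probe sets), and in 56 every KO array lay below (23.9%, against 13.6%).

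On the brightest probe sets 0 of 83 were called higher, with a background of 0.517%, and 1 was called lower, with a background of 0.462%. On the other 151 probe sets 6 were called higher (3.97%, with a background of 3.19%) and 0 lower, with a background of 0.179%. By an unadjusted p under 0.05 the brightest probe sets counted 3 with a higher and 18 with a lower mean in KO, or 3.61% and 21.7%, against 6.17% and 13.0% of all brightest ones. The others counted 25 and 26, or 16.6% and 17.2%, against 14.0% and 8.85% of all others. The median log2 change was -0.09 for the brightest probe sets of members (-0.06 for all brightest probe sets) and -0.03 for their others (-0.01 for all others).

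**Figure D1:**
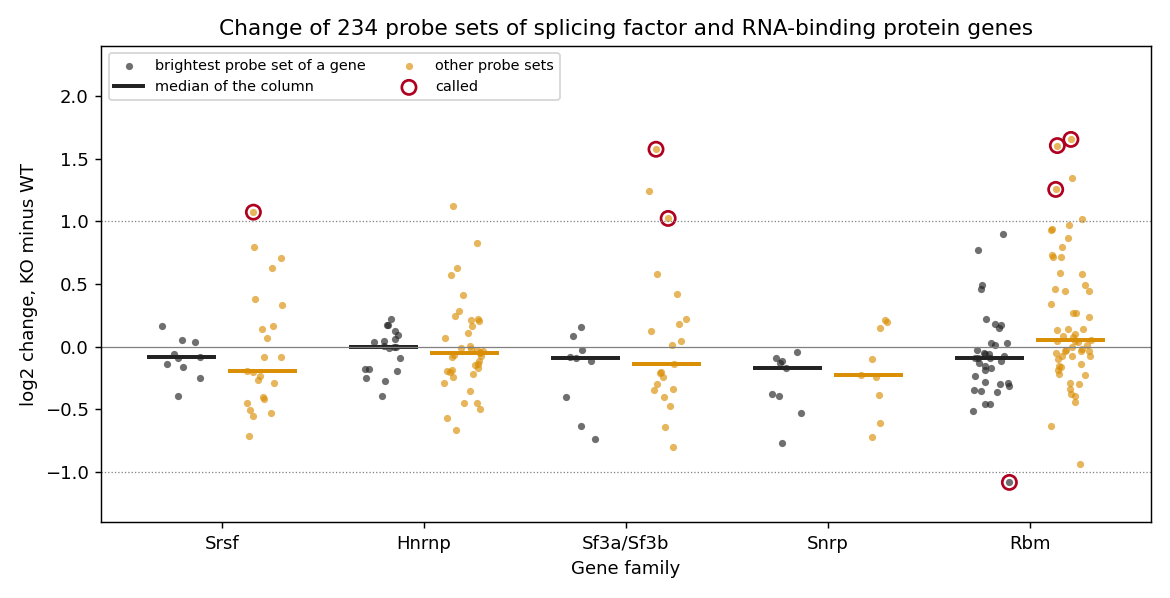
Log2 change (KO minus WT, vertical axis) of the 234 probe sets by gene family, with the brightest probe set of each gene in black and the other probe sets in orange; bars are medians, rings mark called probe sets and dotted lines mark a 2-fold change. All 6 called rises lie in the orange columns and the 1 called fall, Rbm48, in a black one.

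Among the SR protein genes, the brightest probe sets ranged from -0.40 to 0.16 in log2 change and none was called. Srsf5, which had the brightest probe set of the family, was at 12.48, 12.38 and 12.25 in WT and 12.29, 12.23 and 12.31 in KO, and the groups overlapped. The highest change on a brightest probe set was 0.16 for Srsf9 (SE 0.14) and the lowest -0.40 for Srsf3 (SE 0.12), neither of them called. Srsf3 is the smallest SR protein and regulates the inclusion of an exon in its own transcript. Its brightest probe set, 1416150_a_at, was at 11.70, 11.91 and 11.77 in WT and 11.52, 11.23 and 11.45 in KO. Every KO array lay below every WT array here, and the same held for 3 more of the 6 probe sets of the gene. The dimmest, 1438215_at, lay the other way, at 7.97, 7.61 and 7.43 in WT and 8.50, 8.20 and 8.43 in KO (0.71, SE 0.17, limma adjusted p = 0.0904), a change short of 2-fold.

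Srsf11, an SR-related protein of the early spliceosome, carried the 1 called rise of the family. Probe set 1439095_at was at 4.44, 4.87 and 4.81 in WT and 5.99, 5.23 and 6.12 in KO, with no overlap (1.07, SE 0.25, limma adjusted p = 0.0870). The brightest probe set of the gene was at 11.15, 11.36 and 11.04 in WT and 10.93, 11.06 and 11.16 in KO, so that its groups overlapped (-0.13, SE 0.13). Another one, 1427269_at, was lower in every KO array (-0.55, SE 0.15, not called), and the 4 probe sets of Srsf11 thus lay on both sides of 0. The call on 1439095_at was lost without WT1, KO5 or KO7, where the change was 0.94, 0.97 and 0.91.

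No Hnrnp probe set was called, among 58 of 19 genes, and the brightest ones had a median change of -0.000921 and a range from -0.39 to 0.22. Hnrnpc, which coats U-rich stretches of nascent transcripts and had the brightest probe set, was at 13.11, 13.25 and 13.23 in WT and 12.86, 12.93 and 12.97 in KO. The groups did not overlap, but the change of -0.28 (SE 0.10, limma adjusted p = 0.209) was far under 2-fold. The extremes were 0.22 for Hnrnpul1 (SE 0.14) and -0.39 for Hnrnpd (SE 0.18), the AU-rich element binding protein AUF1. The WT and KO arrays of both overlapped. Hnrnpr, a nuclear and cytoplasmic RNA-binding protein, had a dim probe set of high change, 1452030_a_at, at 6.27, 4.86 and 5.37 in WT and 6.81, 6.10 and 6.96 in KO. WT1 lay above KO6 there, and the change of 1.12 (SE 0.37, limma adjusted p = 0.168) did not pass the test.

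Among the SF3A and SF3B genes, 2 of 30 probe sets were called, both higher and both dimmer ones of the large SF3B subunits. Sf3b1 encodes the subunit that holds the branch site. Its probe set 1418562_at was at 10.77, 10.10 and 9.78 in WT and 11.18, 11.00 and 11.54 in KO, with no overlap (1.02, SE 0.26, limma adjusted p = 0.104). The brightest probe set of Sf3b1, also the brightest of the family, was at 12.63, 12.62 and 12.31 in WT and 12.39, 12.44 and 12.48 in KO (-0.09, SE 0.12), and both further probe sets were lower in every KO array (-0.21 and -0.34, not called). The call on 1418562_at, just above 2-fold, was lost without WT2, WT3, KO5 or KO7, at changes of 0.97, 0.81, 1.05 and 0.87, and with the replicate number as a block (unadjusted p = 0.0105).

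Sf3b2 encodes another large SF3B subunit, which contacts the RNA near the branch site. Its probe set 1429362_a_at was at 8.55, 7.64 and 7.54 in WT and 9.32, 9.25 and 9.88 in KO (1.58, SE 0.29, limma adjusted p = 0.0655), a 2.98-fold rise. All KO arrays lay above all WT arrays, and WT1 lay above WT2 and WT3. The brightest probe set, 1438637_x_at, was at 10.29, 10.54 and 10.44 in WT and 10.49, 10.24 and 10.45 in KO, with overlapping groups (-0.03, SE 0.12). Of the 7 probe sets of Sf3b2, 4 were higher in every KO array and 1 was lower in every KO array, with changes from -0.30 to 1.58.

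Sf3b6, the p14 protein that touches the branch point adenosine, was lower on all 4 of its probe sets. Its brightest was at 10.65, 11.17 and 11.24 in WT and 10.26, 10.29 and 10.31 in KO (-0.73, SE 0.17, limma adjusted p = 0.0860), and a nearly equally bright one, 1417055_at, was at 10.68, 10.99 and 11.20 against 10.12, 10.09 and 10.26 (-0.80, SE 0.15, limma adjusted p = 0.0667). Every KO array was below every WT array on 3 of the 4 probe sets, and none reached 2-fold. Sf3b5, a further small subunit, was at 10.97, 11.03 and 11.30 in WT and 10.57, 10.25 and 10.58 in KO on its brightest probe set (-0.63, SE 0.14, not called). All 3 of its probe sets had a change below 0, and 2 were lower in every KO array. The groups overlapped on 1451185_at, at 10.40, 10.09 and 10.46 in WT and 10.27, 9.90 and 10.19 in KO (-0.20, SE 0.15). The highest change on a brightest probe set was 0.16 for Sf3a2 (SE 0.18), whose groups overlapped.

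The Snrp genes encode Sm proteins, which ring most spliceosomal RNAs, and some of the proteins proper to the U1 and U2 particles. The brightest probe sets of all 9 genes had a change below 0, from -0.77 to -0.04 with a median of -0.17, and 4 of the 9 were lower in every KO array. None was called, and over all genes 61.2% of brightest probe sets had a change below 0 and 16.1% were lower in every KO array. The count of 9 below 0 was 8 with the arrays centred on ribosomal protein genes, 7 with either RNA quality covariate, 7 without WT3, 7 of the 8 genes left without _s_at and _x_at probe sets, and 8 of 8 with a minimum mean of 6. Snrpb2, the U2 B'' protein, was at 10.64, 11.00 and 10.96 in WT and 9.99, 9.96 and 10.35 in KO (-0.77, SE 0.16, limma adjusted p = 0.0726). The groups stood clear of each other, at a change short of 2-fold. A second bright probe set of the same gene, 1426613_a_at, was at 10.13, 10.003 and 10.16 in WT and 10.15, 10.19 and 10.39 in KO, and did not show it (0.15, SE 0.12).

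Snrpe, an Sm ring protein with the brightest probe set of the family, was at 12.64, 12.82 and 12.99 in WT and 12.38, 12.34 and 12.60 in KO (-0.38, SE 0.13, limma adjusted p = 0.191). Snrpg, its neighbour in the ring, was at 12.58, 12.85 and 12.88 against 12.27, 12.34 and 12.50 (-0.40, SE 0.13), and Snrpa1, the U2 A' protein that pairs with Snrpb2, at 9.85, 10.20 and 10.25 against 9.81, 9.56 and 9.36 (-0.53, SE 0.16). On these brightest probe sets all 3 were lower in every KO array and none was called. The groups overlapped on 1448357_at of Snrpg (-0.24, SE 0.14). They also overlapped on 1417353_x_at (-0.23, SE 0.19) and 1417352_s_at (-0.09, SE 0.14) of Snrpa1. The smallest difference was that of Snrpb, the SmB protein, at 11.72, 11.96 and 12.16 in WT and 11.92, 11.94 and 11.86 in KO (-0.04, SE 0.14). In a whole organoid, fewer cells of a type and less RNA per cell cannot be told apart.

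**Figure D2:**
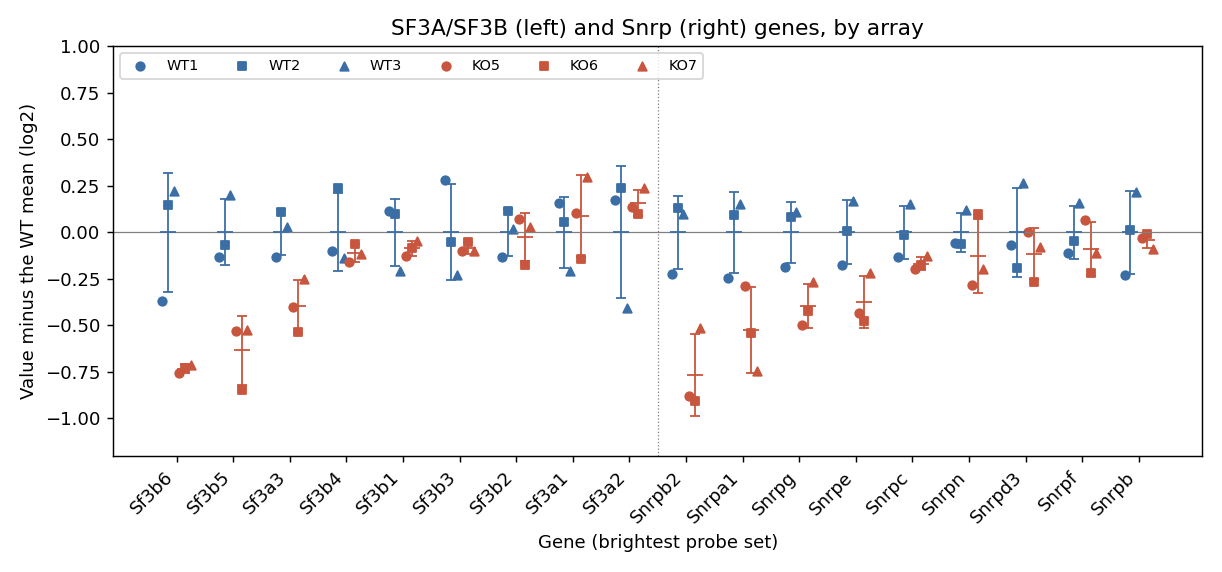
Deposited value of the brightest probe set minus its WT mean (log2, vertical axis) for the 9 SF3A and SF3B genes (left of the dotted line) and the 9 Snrp genes, by array, with group means and SD (n = 3). Sf3b6, Sf3b5 and Snrpb2 lie lowest in KO, and no mean is 2-fold (1 unit) below WT.

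The Rbm genes held 3 of the 6 called rises and the 1 called fall. Rbm48, which in maize and human cells takes part in the splicing of U12-type introns, was read by 1 probe set, at 6.99, 7.55 and 7.64 in WT and 6.42, 5.99 and 6.52 in KO. All KO arrays lay below all WT arrays, with a 2.12-fold fall (-1.08, SE 0.21, limma adjusted p = 0.0684). The call was lost without WT3 (-0.96), without KO6 (-0.92) and with either RNA quality covariate.

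Rbm5 encodes a splicing regulator of apoptosis genes that acts in the early spliceosome, and was the gene with 2 called probe sets. Probe set 1456262_at was at 7.19, 7.10 and 6.74 in WT and 8.24, 8.00 and 8.55 in KO (1.26, SE 0.18, limma adjusted p = 0.05004). Probe set 1438069_a_at was at 5.56, 5.55 and 4.80 in WT and 6.86, 6.49 and 7.37 in KO, a 3.04-fold rise (SE 0.28 on the log2 scale, limma adjusted p = 0.0591). One more, 1452187_at, was at 5.94, 5.55 and 5.64 against 6.48, 6.63 and 6.83 (0.94, SE 0.15, not called). On all 3 the groups were clearly apart. The brightest probe set of Rbm5 was at 9.996, 9.80 and 9.82 in WT and 9.71, 9.78 and 9.98 in KO and overlapped (-0.05, SE 0.12), as did the fifth probe set (-0.09). Both calls held without any 1 array. Rbm6, a related gene next to Rbm5 on the chromosome, had 1 of 3 probe sets with every KO array above every WT array, at 6.44, 5.45 and 5.42 against 6.67, 6.65 and 6.91 (0.97, SE 0.27, not called).

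Rbm47, an RNA-binding protein of epithelial cells and a cofactor of APOBEC1 in RNA editing, had the largest rise of any member. Probe set 1438021_at was at 8.21, 7.12 and 7.98 in WT and 9.25, 9.37 and 9.66 in KO, a 3.15-fold rise (1.65, SE 0.28, limma adjusted p = 0.0570). The call held without any 1 array. Unlike in the other genes with a called rise, the brightest probe set also lay higher in every KO array, at 9.08, 8.13 and 8.11 against 9.17, 9.18 and 9.30 (0.77, SE 0.26, limma adjusted p = 0.166). WT1 was within 0.1 of KO5 on it, and the change did not pass the test.

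**Figure D3:**
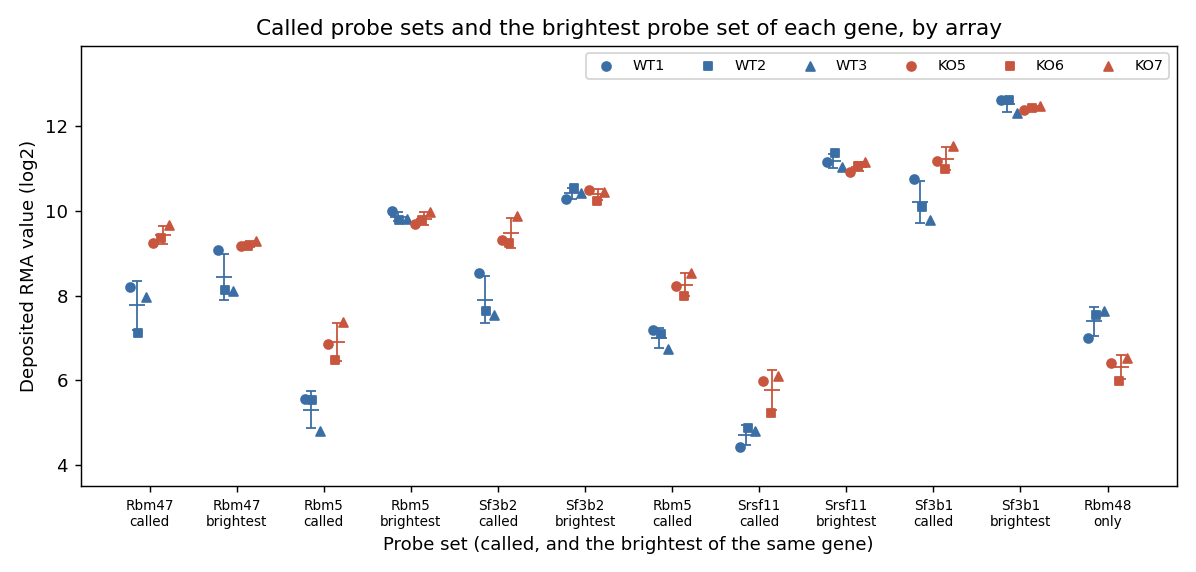
Deposited value (log2, vertical axis) of the 7 called probe sets, by array, each beside the brightest probe set of the same gene, with group means and SD (n = 3). Called rises separate the KO arrays from the WT arrays, while the brightest probe sets of Rbm5, Sf3b2, Srsf11 and Sf3b1 overlap.

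Rbm39, a splicing factor related to U2AF and a coactivator of nuclear receptors, had the brightest probe set of its family over the 6 arrays, 1438420_at. It also had the highest change on a brightest probe set. Both ranks used the KO arrays, where this probe set was high. Its WT mean of 10.75 lay below those of 1426671_a_at of the same gene (10.76) and of Rbm7 (11.17), among others. Probe set 1438420_at was at 11.23, 10.63 and 10.38 in WT and 11.72, 11.44 and 11.77 in KO, apart between the groups but short of 2-fold (0.90, SE 0.22, limma adjusted p = 0.0980). The second brightest, 1426671_a_at, was at 10.79, 10.89 and 10.61 in WT and 10.38, 10.33 and 10.40 in KO (-0.39, SE 0.11), so that the KO arrays lay above WT on one and below WT on the other. Over the 12 probe sets the change ran from -0.44 to 1.35, 9 were above 0 and 3 below, 3 were higher and 1 was lower in every KO array, and none was called. The replicate spread was wide on some of them: 1438398_at was at 8.45, 7.88 and 7.12 in WT and 9.52, 6.43 and 7.48 in KO.

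Some genes outside the naming rule, picked after their values were seen, add to the range. Rbm34 was lower in every KO array on both of its probe sets, at 7.72, 8.18 and 7.89 in WT and 6.97, 7.04 and 6.97 in KO on the dimmer one (-0.93, SE 0.14, limma adjusted p = 0.0505, not called for its size). Rbm25, a regulator of Bcl-x splicing, had 2 of 6 probe sets higher in every KO array (0.93 and 0.87, not called), and Srsf1, the founding SR protein, had 1 of 7 (0.80, not called) beside a brightest probe set at 0.06.

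**Figure D4:**
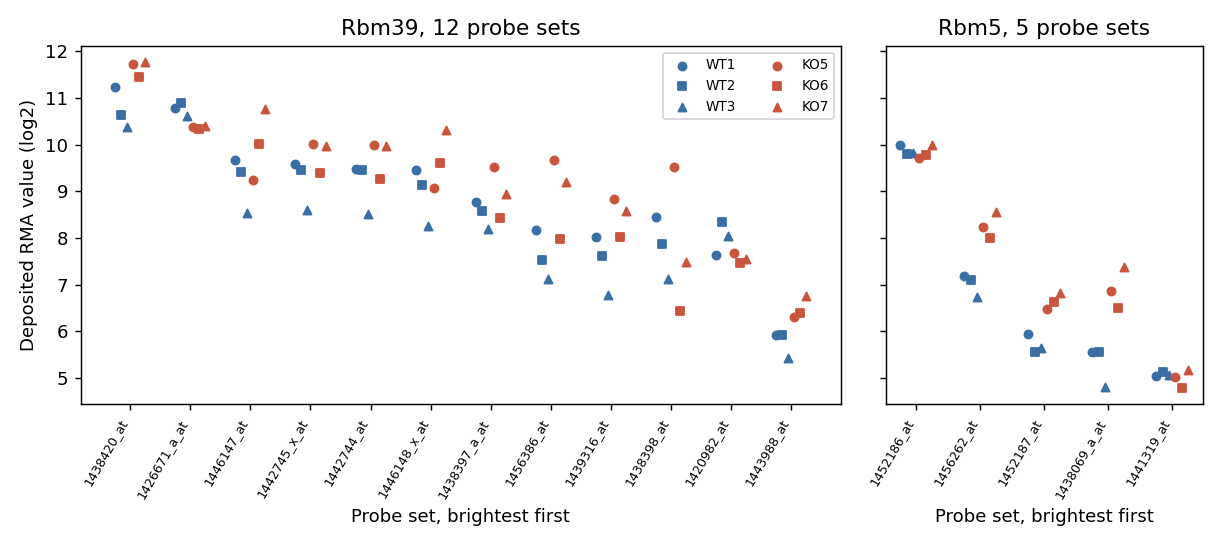
Deposited value (log2, vertical axis) of each probe set of Rbm39 (12) and Rbm5 (5), brightest first, by array. KO arrays lie above WT on the brightest probe set of Rbm39 and below WT on the next, and 3 of the dimmer probe sets of Rbm5 separate the groups where the brightest does not.

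To compare probe sets of 1 gene within each array, the value of each other probe set minus that of the brightest was fitted in the same way, for 151 differences in 60 member genes and 16752 differences over all genes. The size of such a difference depends on the probes, so that only its change between groups is described. Of the 151, 7 rose (4.64%, with a background of 3.65%) and 2 fell (1.32%, with a background of 0.657%) by at least 1 on the log2 scale at an unadjusted p under 0.01, and 11 had an adjusted limma p under 0.05, as did 1107 of all 16752. The median change was 0.06 for members and 0.08 for all.

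The 7 rises were in 6 genes. In Rbm5, 1456262_at minus the brightest went from -2.81, -2.70 and -3.08 in WT to -1.46, -1.78 and -1.43 in KO (1.30, SE 0.17, limma adjusted p = 0.0157), and 1438069_a_at from -4.43, -4.25 and -5.02 to -2.84, -3.29 and -2.61 (1.65, SE 0.25, limma adjusted p = 0.0170). The first of these was called under all 16 other settings tried, and the second under 15, all but the covariate of Gapdh and Actb. In Srsf3, 1438215_at went from -3.73, -4.30 and -4.35 to -3.02, -3.02 and -3.03 (1.10, SE 0.19, limma adjusted p = 0.0197). The KO arrays of Srsf3 were within 0.01 of each other, whereas WT1 stood above the other WT arrays, and the call was lost without WT3 (0.99) and with either RNA quality covariate.

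Sf3b2, Sf3b1 and Srsf11 showed the same form on their called probe sets. The change was 1.60 for Sf3b2 (SE 0.32, limma adjusted p = 0.0274), 1.11 for Sf3b1 (SE 0.22, limma adjusted p = 0.0289) and 1.21 for Srsf11 (SE 0.25, limma adjusted p = 0.0311). The call for Sf3b1 was lost without WT3 (0.997) or KO7 (0.983), those for Sf3b1 and Sf3b2 with either RNA quality covariate, and that for Srsf11 with the covariate of Gapdh and Actb. Hnrnpr was the last, at -4.38, -5.93 and -5.46 in WT and -4.00, -4.36 and -3.52 in KO (1.30, SE 0.38, limma adjusted p = 0.0757). WT1 and KO6 of Hnrnpr were 0.02 apart, and the call was lost under 8 of 16 other settings.

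Both falls were in Rbm39, where the brightest probe set changed by 0.90 and the other ones by -0.39 and -0.44. The difference of 1426671_a_at went from -0.44, 0.26 and 0.23 in WT to -1.34, -1.11 and -1.37 in KO (-1.29, SE 0.21, limma adjusted p = 0.0187), and that of 1420982_at from -3.59, -2.28 and -2.34 to -4.05, -3.97 and -4.22 (-1.34, SE 0.32, limma adjusted p = 0.0445). When the brightest probe set was chosen by the WT arrays alone, 1426671_a_at itself became the brightest of Rbm39, and the change of 1420982_at against it was -0.05. The call on 1420982_at was also lost without WT2 (-1.11), WT3 (-1.15) or KO7 (-1.27), and both falls were lost with either RNA quality covariate.

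**Figure D5:**
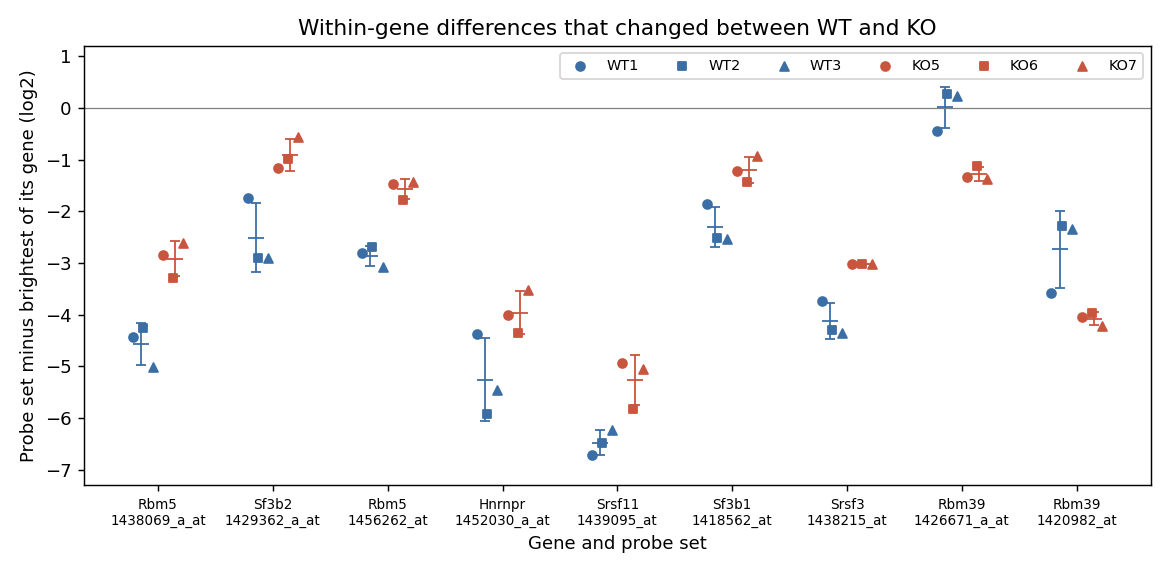
Value of a probe set minus that of the brightest probe set of the same gene (log2, vertical axis) by array, for the 9 within-gene differences that changed, with group means and SD (n = 3). In each of them all KO arrays lie on one side of all WT arrays, and WT1 is the WT array nearest to KO in 6 of the 9.

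WT1 was the highest WT array on 5 of the 6 called rises and WT2 on 1, and WT1 also had the lowest Gapdh and Actb 3' minus 5' signals of the WT arrays. With the mean of those signals per array as a covariate, which ran from 0.965 to 2.13 in WT and from 0.543 to 0.597 in KO, 0 of the 6 rises were called and their changes lay between 0.26 and 1.44. Without WT1, 15 members were called higher. Over all 45037 probe sets, 137 were called higher with that covariate and 1358 without WT1, beside 759 in the main fit. The Gapdh and Actb covariate did not overlap between the groups, so that a fit with it cannot tell RNA quality and genotype apart. The part of RNA quality and of the higher summed stromal markers in these results was not tested further. Where each probe set lies along its transcript is not given in the sources used here.

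Other splicing genes outside the 5 families were taken from a list of 106, of which 103 were measured by 340 probe sets. The list was chosen with earlier results of these data known, so that its shares describe the list and are not a test. Of these 20 (5.88%) were called higher, in 17 genes, and 0 lower, beside 1.69% and 0.3% of all probe sets. As in the 5 families, and as for called rises over all genes, most calls were on dimmer probe sets. Of the brightest ones 2 of 103 were called (1.94%, with a background of 0.517% higher), and of the others 18 of 237 (7.59%, with a background of 3.19% higher). The 2 brightest ones were those of Srrm2 (1.19), a scaffold protein of nuclear speckles, and Taf15 (1.16), an RNA-binding protein related to Ewsr1. The largest change was that of Rsrc2, at 6.91, 5.63 and 4.70 in WT and 9.13, 8.75 and 8.87 in KO (3.17, SE 0.49, limma adjusted p = 0.0533), whose brightest probe set changed by -0.18. Next were a probe set of Mbnl2, the muscleblind splicing regulator (2.43), Acin1 (2.09), another probe set of Mbnl2 (2.08), Fubp1 (1.95), Prpf38b (1.93), Sfpq (1.85) and Luc7l2 (1.72). Their brightest probe sets had changes between -0.48 and 0.45. WT1 was the highest WT array on each of the 20 called probe sets except the dimmer one of Srrm2, where WT2 was. As given above, WT1 was also the WT array closest to the KO arrays for the Gapdh and Actb controls. The part of RNA quality in the rises of this list was not tested.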

How the data were processed

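RNA of 6 mammary organoid samples (3 WT, 3 KO) was hybridised by the authors to Affymetrix Mouse Genome expression arrays, and the deposited values are log2 intensities summarised by RMA. Scanner files were not used here, and the number of arrays limits the precision. Of 45101 probe sets, 64 Affymetrix controls were set aside and 45037 were tested; 34945 had 1 gene symbol in the platform annotation, 932 several and 9160 none, and 26 probe sets that list a member among several symbols were left out. IDs ending in _a_at read several transcripts of a gene, in _s_at transcripts that may belong to several genes, and in _x_at may cross-hybridise (39, 24 and 22 of the 234 members), so that values of close paralogs are uncertain.

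KO was compared with WT across all probe sets with limma 3.58.1 (lmFit and eBayes, R 4.3.3), without covariates. A call needed an unadjusted p under 0.01 and 2-fold, and Benjamini-Hochberg adjustment was over all probe sets tested. The study reported limits of p under 0.01 and 2-fold, without saying whether its p was adjusted. Values of each other probe set minus the brightest of its gene were fitted likewise over 16752 differences. Both fits were tested on simulated data. P-values measure the spread between 3 mice a group.

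The members and lists were chosen with earlier results of these data known. Named were every called probe set with the brightest of its gene, per family the brightest probe set and the highest and lowest change on a brightest probe set, and the called within-gene differences. Alternatives were cyclic loess, centring on ribosomal protein genes, a minimum mean of 6, an intensity trend with robust prior, array weights, a replicate block, 2 RNA quality covariates, other limits of a call, leaving out _s_at and _x_at probe sets, the brightest probe set by WT arrays, and leaving out each array. Motifs were searched with Python 3 as exact letters on both strands. Figures were drawn with matplotlib.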

Additional observations from a re-analysis of the deposited data

How the results depend on the processing

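The count of 6 members called higher was 11 with array weights, 16 at 1.5-fold, 0 at an adjusted p under 0.05, 0 with the covariate of Gapdh and Actb, 2 with that of all 4 control transcripts, and 4 to 15 when 1 array was left out (15 without WT1). Over all 45037 probe sets, 759 called higher became 1015, 1570, 77, 137 and 316 in the same order. With 1 array left out they were 481 to 1358 (1358 without WT1). The 1 member called lower was 2 with array weights, 10 at 1.5-fold, 0 at an adjusted p under 0.05, 0 with the covariate of all 4 control transcripts, and 0 to 2 when 1 array was left out (0 without WT3 or KO6, 2 without WT1). Over all probe sets, 135 called lower became 169, 843, 23 and 318 in the same order. With 1 array left out they were 85 to 284 (276 without WT1). With the Gapdh and Actb covariate the 1 fall was that of Rbm4b in place of Rbm48. The 1 brightest probe set called was 5 at 1.5-fold, 0 at an adjusted p under 0.05, 0 with the covariate of all 4 control transcripts, and 0 to 3 without 1 array (3 without WT1, 0 without WT3). The 7 within-gene rises were 14 at 1.5-fold, 11 with the brightest probe set chosen by WT arrays, 4 with the covariate of Gapdh and Actb, of which 1 (Rbm5 1456262_at) was among the 7 and the rest were of Rbm15b and Rbm4b, 3 with that of all 4 control transcripts, all among the 7, and 5 to 13 without 1 array (13 without WT1). Over all 16752 differences, 612 rises became 1398, 656, 178 and 297 in the same order. With 1 array left out they were 412 to 966 (966 without WT1). The within-gene difference of Hnrnpr 1452030_a_at changed sign with the Gapdh and Actb covariate, at -0.14. The cause of these changes was not tested. Under the other alternatives each of the 4 counts stayed within 1.5 times of its value.

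The samples were not treated as paired by replicate number. Deviations of arrays of the same number correlated at -0.16, 0.16 and 0.10, which with 3 arrays a group cannot exclude a pairing. With the replicate block 8 members were called higher and 1 lower, beside 775 and 147 of all 45037 probe sets. With 3 arrays a group the median 95% interval of a change was 0.32 either side on the brightest probe sets of members and 0.36 on their others.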
